A study of Mus musculus with 67 samples.

Results

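Transcript levels of 72 probe sets for organic ion and ABC transporters were compared between mice bred for high, normal and low blood pressure. The probe sets were those whose gene symbol in the platform annotation belongs to the Slc22a, Slco, Abcb, Abcc or Abcg families, with Abcb11 left out. They stood for 55 of the 19147 named genes and were 72 of the 38385 probe sets in all. Of the 55 genes, 12 had several probe sets. Male mice aged 12 weeks came from the hypertensive strain BPH/2J, the normotensive strain BPN/3J and the hypotensive strain BPL/1J, here called BPH, BPN and BPL. Systolic pressure was given as 142 ± 5 mmHg in BPH, 94 ± 6 mmHg in BPN and 69 ± 1.7 mmHg in BPL, with the kind of error not stated. Each array held RNA of a single tissue. Kidney had 5 BPH, 5 BPN and 4 BPL arrays, liver and heart had 5 of each strain, and aorta had 9 BPH, 5 BPN and 9 BPL arrays. The strains are inbred lines from selective breeding, so any strain difference stands for 1 line against another, whatever its link to pressure. The design named 5 mice per strain, fewer than the aorta arrays of BPH and BPL, and the labels did not tie arrays to animals. Every p-value here thus rests on array-to-array spread, which may be partly technical.

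The SLC22 family carries organic cations (OCT), carnitine (OCTN) and organic anions (OAT), and the SLCO family (OATP) carries larger organic anions such as bile acids, steroid conjugates, thyroid hormones and prostaglandins. In the renal proximal tubule, OCT and OAT proteins of the basolateral membrane take drugs and toxins from blood, and ABC pumps and the Slc47a1 exchanger of the apical membrane pass them to urine. In hepatocytes, OATP proteins take compounds up from sinusoidal blood, while ABC pumps send them into bile or back to blood. The ABCB, ABCC and ABCG families also hold proteins with other tasks, among them the sulfonylurea receptors of ATP-sensitive potassium channels, mitochondrial transporters and exporters of cholesterol and phospholipid.

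Promoters are shown for 4 genes on which the kidney results turn. Slco1a1, Slco1a6 and Abcc9 lie in a single stretch of chromosome 6 and were all higher in BPH and BPL kidney than in BPN kidney, and Abcc2, on chromosome 19, encodes the apical pump MRP2. The sequences are those of RefSeq on build GRCm38.p6, with 250 bases before and 50 after the gene's start, written 5′ to 3′ on the gene's strand. The table held 44 of the 55 genes. Searches on both strands covered 3 motifs, whose matches are in capitals. The TATA box, searched as TATAAA, occurs in 13.6% of all promoters in the table. The core of an HNF1 site, searched as GTTAAT, occurs in 7.1% of them, and the GC box, searched as GGGCGG, in 35.7%.
Slco1a1, minus strand, chr6:141946913-141947212: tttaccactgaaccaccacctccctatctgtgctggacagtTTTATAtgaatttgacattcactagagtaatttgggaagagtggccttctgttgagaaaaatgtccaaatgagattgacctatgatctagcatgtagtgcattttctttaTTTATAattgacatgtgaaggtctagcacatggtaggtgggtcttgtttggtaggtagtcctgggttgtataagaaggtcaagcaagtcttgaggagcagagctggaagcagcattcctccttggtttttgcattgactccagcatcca
Slco1a6, minus strand, chr6:142186100-142186399: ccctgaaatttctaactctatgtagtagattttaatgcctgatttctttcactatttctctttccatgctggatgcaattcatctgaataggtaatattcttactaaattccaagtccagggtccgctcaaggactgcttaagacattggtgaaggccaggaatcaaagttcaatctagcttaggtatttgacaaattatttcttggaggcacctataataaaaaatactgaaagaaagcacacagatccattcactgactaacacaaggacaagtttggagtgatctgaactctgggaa
Abcc9, minus strand, chr6:142702225-142702524: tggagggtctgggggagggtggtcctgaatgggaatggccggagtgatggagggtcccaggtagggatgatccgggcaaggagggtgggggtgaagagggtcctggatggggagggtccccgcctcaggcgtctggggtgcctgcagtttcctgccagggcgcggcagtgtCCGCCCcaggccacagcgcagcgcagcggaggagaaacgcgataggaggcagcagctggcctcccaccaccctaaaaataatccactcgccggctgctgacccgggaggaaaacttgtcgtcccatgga
Abcc2, plus strand, chr19:43782058-43782357: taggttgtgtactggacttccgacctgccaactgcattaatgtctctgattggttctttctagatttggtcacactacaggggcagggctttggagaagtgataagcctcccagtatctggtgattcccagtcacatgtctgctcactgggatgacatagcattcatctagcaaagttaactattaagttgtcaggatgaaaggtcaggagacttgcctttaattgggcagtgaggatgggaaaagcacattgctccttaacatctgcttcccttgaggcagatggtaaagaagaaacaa
The Slco1a1 window held 2 matches to TATAAA, the Abcc9 window 1 match to GGGCGG, and the other 2 windows none of the searched letters. All of these matches lay on the strand opposite to the gene. Their distance from the start was not weighed, and whether any is a working site was not tested. The GC content was 42.0% for Slco1a1, 37.3% for Slco1a6, 65.7% for Abcc9 and 45.0% for Abcc2. None of these motifs was present in all 3 windows of the chromosome 6 genes.

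All values are log2 intensities, and a difference is the first strain minus the second on that scale. A probe set was called when limma's adjusted p over all 38385 probe sets was below 0.05. Array medians of the intensity differed by tissue, from 13.6 to 14.4 in liver and from 29.8 to 31.5 in kidney, so strains were compared within a tissue only. Averaged over their genes, 20 proximal tubule markers lay between 11.69 and 11.89 in the kidney arrays and 9 hepatocyte markers between 12.58 and 12.80 in the liver arrays, against lower quartiles of all probe sets of at most 3.64 and 2.76. A fold is not given where a strain mean lay under that quartile, since such a level may be background. Of the 72 members, 62 lay above it in at least 1 strain in kidney, 63 in liver, 61 in heart and 58 in aorta. Levels of different probe sets were not compared, and the comparisons of BPH and BPL with BPN share the BPN arrays.

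In kidney, uptake carriers of the OATP1 group, the cation carrier Slc22a2, the apical pump Abcc2 and the channel subunit Abcc9 were higher in BPH than in BPN, and each was also higher in BPL. Of the 72 members, 13 were called in BPH against BPN, with 12 higher and 1 lower, while 7.05% of all probe sets were called, 3.66% higher and 3.39% lower. In BPL against BPN, 17 were called, with 12 higher and 5 lower, against 6.24% of all probe sets, 3.22% higher and 3.02% lower. In BPH against BPL, 8 were called, with 4 in each direction, against 6.33% of all probe sets, 3.14% higher and 3.19% lower. Over the 72 members the median difference was 0.03 in BPH and 0.00 in BPL, beside 0.00 and -0.01 over all probe sets.

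Among the SLC22 carriers of kidney, Slc22a2 encodes the cation carrier OCT2. It read 11.86, 11.85, 11.89, 11.77 and 11.68 in BPH, 11.51, 11.57, 11.41, 11.47 and 11.44 in BPN, and 11.96, 11.97, 11.82 and 11.86 in BPL. Every BPH and BPL array lay above every BPN array. Slc22a2 was higher by 0.33 ± 0.06 (SE, adjusted p = 0.0022) in BPH, or 1.26-fold, and by 0.42 ± 0.06 (SE, adjusted p = 0.000421) in BPL. The anion carrier Slc22a7 (OAT2) went the other way, with 10.99, 10.94, 11.01, 10.69 and 10.58 in BPH, 11.24, 11.33, 11.07, 11.34 and 11.28 in BPN, and 11.13, 11.20, 10.86 and 10.97 in BPL. It fell by 0.41 ± 0.09 (SE, adjusted p = 0.0116) in BPH, with no overlap with BPN, and the difference in BPL was -0.21 ± 0.10 (SE, adjusted p = 0.276).

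The main basolateral anion carriers were not called in BPH. Slc22a6 (OAT1) differed by -0.21 ± 0.07 (SE, adjusted p = 0.0875) in BPH and by 0.06 ± 0.07 (SE, adjusted p = 0.746) in BPL, and it was lower in BPH than in BPL, by -0.26 ± 0.07 (SE, adjusted p = 0.0369). Slc22a8 (OAT3) had 3 probe sets, with differences of -0.21, -0.23 and -0.31 in BPH and -0.23, -0.26 and -0.49 in BPL. All 6 values were negative, and the last of them was called, with an adjusted p of 0.0188. The anion carrier Slc22a13, which takes urate and nicotinate, was higher by 0.26 and 0.29, Slc22a26 by 0.39 and 0.43, all 4 values called. Slc22a19 (OAT5) was higher by 0.24 in BPL, and the carnitine carrier Slc22a21 by 0.37 in BPH. Slc22a19 and Slc22a26 belong to a cluster of close relatives on chromosome 19, and reads of a probe set across relatives were not tested. Slc22a12 (URAT1), the apical urate exchanger, differed by 0.03 ± 0.06 (SE, adjusted p = 0.871) and 0.00 ± 0.07 (SE, adjusted p = 0.983).

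Of the 8 OATP1 probe sets, 2 were called in kidney, both higher in each strain. Slco1a1, an organic anion uptake carrier, read 11.24, 11.19, 10.83, 11.08 and 10.73 in BPH, 10.66, 10.04, 10.10, 10.55 and 10.66 in BPN, and 11.51, 11.59, 11.23 and 11.40 in BPL. It was higher by 0.61 ± 0.14 (SE, adjusted p = 0.00916) in BPH and by 1.03 ± 0.14 (SE, adjusted p = 0.000163) in BPL, or 1.53-fold and 2.05-fold, and neither strain overlapped BPN. Its neighbour and close relative Slco1a6 read 10.71, 10.75, 10.50, 10.68 and 10.52 in BPH, 10.25, 10.39, 10.22, 10.28 and 10.25 in BPN, and 10.93, 10.93, 11.01 and 10.83 in BPL. The 3 strains did not overlap, in the order BPN, BPH, BPL. The differences from BPN were 0.36 ± 0.07 (SE, adjusted p = 0.002) in BPH and 0.65 ± 0.07 (SE, adjusted p = 9.38e-06) in BPL, and BPH lay below BPL by 0.29 ± 0.07 (SE, adjusted p = 0.0161). Because Slco1a1 and Slco1a6 are close relatives, part of each signal may come from the other transcript.

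Slco4c1, the kidney carrier of digoxin and uraemic toxins, followed the pressure order of the strains. Its arrays read 8.40, 8.32, 8.46, 8.38 and 8.53 in BPH, 7.84, 7.93, 7.99, 7.96 and 7.83 in BPN, and 7.76, 7.67, 7.52 and 7.25 in BPL. BPH lay above BPN and BPN above BPL without overlap. The steps were 0.51 ± 0.08 (SE, adjusted p = 0.000846) for BPH and -0.36 ± 0.09 (SE, adjusted p = 0.0214) for BPL against BPN, and BPH exceeded BPL by 0.87 ± 0.09 (SE, adjusted p = 6.02e-06), or 1.83-fold. The second Slco4c1 probe set gave 0.36 and -0.42, neither called, and 0.78 ± 0.15 (SE, adjusted p = 0.00334) for BPH against BPL.

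The efflux pumps of kidney fell into 3 patterns. Abcc2 (MRP2), an apical pump for conjugates, read 10.06, 9.81, 9.65, 9.82 and 10.05 in BPH, 8.60, 8.39, 9.11, 9.07 and 9.05 in BPN, and 10.01, 10.10, 9.87 and 9.96 in BPL. All 9 BPH and BPL arrays lay above the 5 BPN arrays, and the BPN arrays themselves spread over 8.39 to 9.11. Abcc2 was higher by 1.03 ± 0.13 (SE, adjusted p = 5.55e-05) in BPH and by 1.14 ± 0.14 (SE, adjusted p = 3.85e-05) in BPL, or 2.04-fold and 2.2-fold.

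Abcc4 (MRP4), which exports cyclic nucleotides, prostaglandins and urate, showed the pressure order instead. It read 8.03, 8.01, 7.94, 7.92 and 7.94 in BPH, 7.81, 7.67, 7.71, 7.71 and 7.52 in BPN, and 7.46, 7.41, 7.46 and 7.36 in BPL, with no overlap between any strains. The differences were 0.29 ± 0.06 (SE, adjusted p = 0.00643) for BPH and -0.26 ± 0.06 (SE, adjusted p = 0.0198) for BPL against BPN, and 0.55 ± 0.06 (SE, adjusted p = 2.66e-05) for BPH against BPL.

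The third pattern was no call against BPN. Abcg2 (BCRP), an apical pump for sulfates and urate, had 2 probe sets with differences between -0.09 and 0.10 in the comparisons with BPN. For the P-glycoprotein gene Abcb1a the differences were 0.26 and -0.04 at levels near the lower quartile. Its relative Abcb1b varied widely within a strain and read 3.99, 4.18, 3.93, 4.19 and 4.38 in BPH, 4.23, 4.33, 4.60, 5.64 and 6.31 in BPN, and 7.0, 5.56, 6.35 and 5.54 in BPL. No difference of Abcb1b from BPN was called (-0.89 in BPH and 1.09 in BPL), while BPH and BPL did not overlap and differed by -1.98 ± 0.38 (SE, adjusted p = 0.00285). Abcb1a and Abcb1b are close relatives, and probe sets read across them were not tested.

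**Figure D1:**
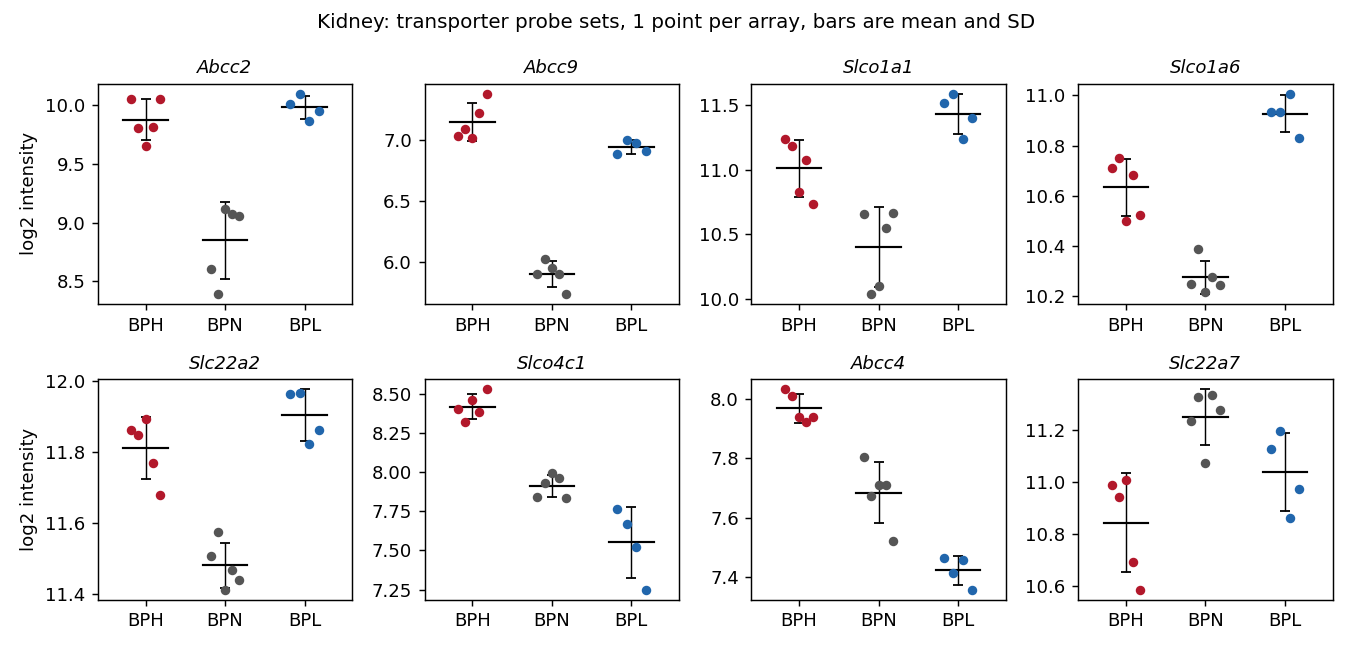
Log2 intensity of 8 transporter probe sets in kidney by strain (5 BPH, 5 BPN and 4 BPL arrays, each a point, with bars for the mean and SD). Abcc2, Abcc9, Slco1a1, Slco1a6 and Slc22a2 are lowest in BPN, Slco4c1 and Abcc4 step down from BPH through BPN to BPL, and Slc22a7 is highest in BPN.

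Members that are not pumps of drugs also differed in kidney. Abcc9 encodes the sulfonylurea receptor SUR2, a regulatory subunit of the ATP-sensitive potassium channels of muscle and vessels. Its brighter probe set read 7.03, 7.09, 7.02, 7.22 and 7.38 in BPH, 5.90, 6.02, 5.95, 5.90 and 5.74 in BPN, and 6.88, 7.0, 6.97 and 6.91 in BPL. The BPH and BPL arrays lay above BPN, by 1.24 ± 0.08 (SE, adjusted p = 1.13e-08) and 1.04 ± 0.08 (SE, adjusted p = 1.99e-07), or 2.37-fold and 2.05-fold. The second Abcc9 probe set lay under the lower quartile in all strains and differed by -0.02 and -0.12, with adjusted p of 0.966 and 0.726. Kcnj8, which encodes the channel pore that pairs with SUR2 in vessels, differed by 0.29 ± 0.12 (SE, adjusted p = 0.176) in BPH and 0.52 ± 0.12 (SE, adjusted p = 0.0162) in BPL. Over 12 pericyte and smooth muscle markers the mean level per array was 5.90 to 6.25 in BPH, 5.96 to 6.10 in BPN and 5.94 to 6.05 in BPL, so the strains overlapped. Of these markers, 2 were called in BPH and 2 in BPL, beside 7.05% and 6.24% of all probe sets. The markers include Kcnj8, and the part of these markers in the Abcc9 differences was not tested. In tissue RNA, fewer cells of a type and less RNA per cell cannot be told apart.

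Slc22a17, a receptor for lipocalin 2, read 6.85, 7.10, 7.24, 6.88 and 7.08 in BPH, 6.54, 6.16, 6.32, 6.30 and 6.32 in BPN, and 6.81, 6.88, 6.56 and 6.77 in BPL. It was higher without overlap in both strains, by 0.71 ± 0.09 (SE, adjusted p = 6.02e-05) and 0.43 ± 0.10 (SE, adjusted p = 0.00951). Abcc6, whose protein serves cellular ATP release and protects tissues from calcification, was higher by 0.85 ± 0.14 (SE, adjusted p = 0.000917) in BPH and by 0.54 ± 0.15 (SE, adjusted p = 0.0431) in BPL. Abcb8, an ABC protein of the inner mitochondrial membrane, differed by 0.11 ± 0.07 (SE, adjusted p = 0.464) in BPH and was higher by 0.55 ± 0.07 (SE, adjusted p = 8.38e-05) in BPL. Abcg1, which exports cholesterol to lipoproteins and is well known from macrophages, differed by -0.15 ± 0.09 (SE, adjusted p = 0.421) in BPH and was lower by 0.60 ± 0.09 (SE, adjusted p = 0.000479) in BPL, with its second probe set at -0.51 (adjusted p = 0.0175). Of 10 macrophage markers, 4 were lower in BPH kidney, beside 3.39% of all probe sets called lower. In BPL kidney 0 of these markers were called (limma, with 2 at an unadjusted p below 0.05). Their part in the Abcg1 differences was not tested.

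The proximal tubule markers, which come from the cells that hold most of these carriers, moved in both directions in kidney. Of 20 such markers, 2 were higher and 4 lower in BPH, beside 7.05% of all probe sets called. In BPL 6 were higher and 6 lower, beside 6.24%. The mean level of the 20 markers per array was 11.72 to 11.81 in BPH, 11.69 to 11.76 in BPN and 11.83 to 11.89 in BPL, the last above BPN without overlap. Its part in the carrier differences was not tested. A joint fit of all 12 groups, which shares 1 spread over the tissues, ended the BPH calls of Slc22a2 (adjusted p = 0.386), Slco1a1 (0.0935), Slc22a7 (0.0661) and Abcc4 (0.155), and the BPL calls of Slc22a2 (0.217), Slco4c1 (0.209) and Abcc4 (0.288). With 1 array left out, calls ended for Abcc4 in BPL without BPL array 2 (adjusted p = 0.0541), BPL array 5 (adjusted p = 0.0609) and BPN array 1 (adjusted p = 0.0537), for Slco4c1 in BPL without BPL array 4 (adjusted p = 0.0596), BPL array 5 (adjusted p = 0.0592) and BPN array 3 (adjusted p = 0.0548), for Slco1a6 in BPH against BPL without BPL array 4 (adjusted p = 0.062), for the called Slc22a8 probe set without BPL array 2 (adjusted p = 0.0523), BPL array 5 (adjusted p = 0.0686) and BPN array 3 (adjusted p = 0.0517), for Slc22a6 in 7 of the 14 fits (adjusted p up to 0.104) and for Abcc6 in BPL in 11 of the 14 fits (adjusted p up to 0.131).

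**Figure D2:**
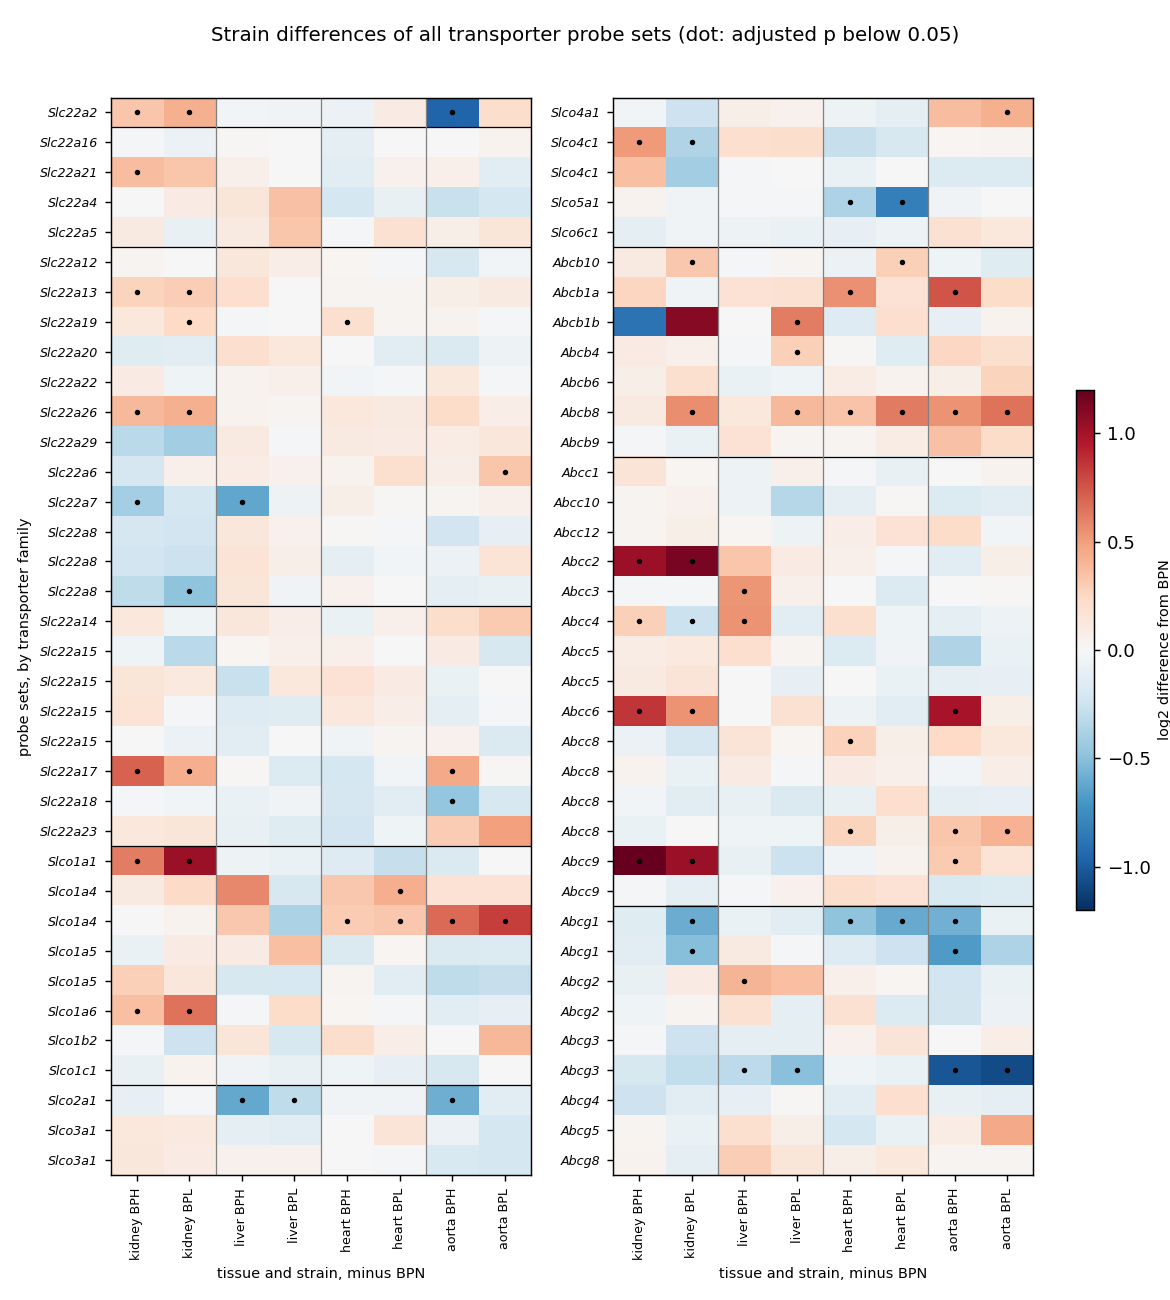
Log2 difference from BPN of all 72 probe sets in BPH and BPL of each tissue (colour scale, values past its ends in the end colour), grouped by transporter family, with a dot where limma's adjusted p was below 0.05. Kidney holds deep red called values for Abcc2, Abcc9, Slco1a1, Abcc6 and Slc22a17, and Abcb8 has a dot in BPL of every tissue.

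The stretch of chromosome 6 that runs from Slco1c1 to Abcc9 in RefSeq order was examined after its members' values had been seen. It holds 7 member genes with 10 probe sets and 6 other genes with 7 probe sets on the array. In kidney, 3 of the 10 member probe sets were higher in BPH and in BPL and 0 were lower, those of Slco1a1, Slco1a6 and Abcc9. Over all probe sets, 3.66% and 3.22% were called higher. The stretch was chosen with these calls in view, so setting them beside that background cannot show an excess. Slco1c1, Slco1b2, Slco1a5 and 1 of the Slco1a4 probe sets lay under the lower quartile in kidney. The other Slco1a4 probe set differed by -0.01 and 0.04.

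Of the 7 probe sets of the other genes of this stretch, 2 were higher and 0 lower in BPH kidney, and 3 were higher and 0 lower in BPL kidney, the third in BPL being that of Kcnj8. Gys2, a glycogen synthase best known from liver, was higher by 1.26 ± 0.07 in BPH and 1.47 ± 0.08 in BPL. Of the 2 probe sets of Golt1b, a Golgi transport gene, one was higher by 2.18 ± 0.10 and 2.08 ± 0.11, while the other differed by -0.10 ± 0.08 and -0.11 ± 0.08. In liver, 0 of the 10 member probe sets were called in either comparison with BPN (limma, with 2 and 5 at an unadjusted p below 0.05), while of the 7 other probe sets 1 was higher and 2 lower in BPH and 2 were higher and 3 lower in BPL. The first Golt1b probe set was higher in liver by 0.99 ± 0.12 and 0.83 ± 0.12, and its other probe set was lower, at -0.45 ± 0.08 and -0.38 ± 0.08. Gys2 gave 0.18 ± 0.07 in BPH, not called, and was higher by 0.26 ± 0.07 in BPL liver. The predicted gene Gm6614 was lower there, at -1.21 ± 0.13 in BPH and -1.08 ± 0.13 in BPL, and Kcnj8 was lower in BPL, at -0.65 ± 0.09.

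**Figure D3:**
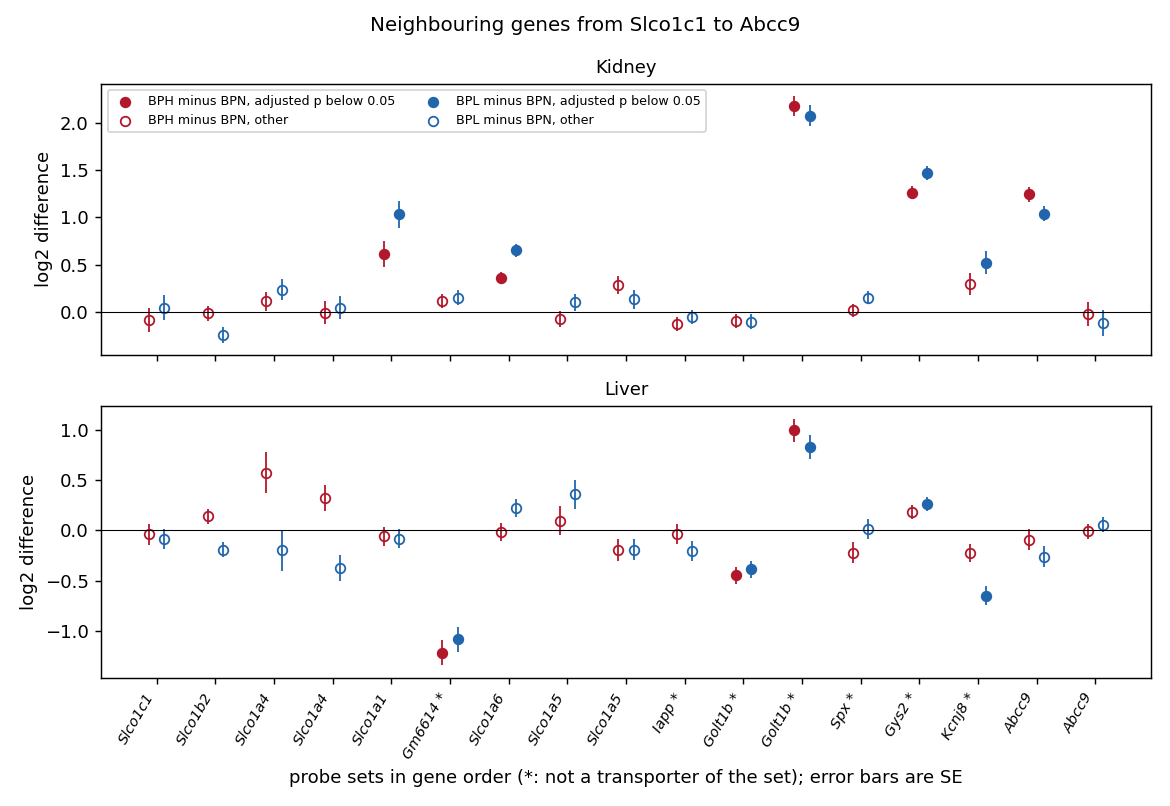
Log2 difference from BPN, with SE bars, of the 17 probe sets between Slco1c1 and Abcc9 in gene order, for kidney (top) and liver (bottom), with filled points where adjusted p was below 0.05. In kidney the filled points lie above 0 at Slco1a1, Slco1a6, 1 Golt1b probe set, Gys2 and Abcc9 in both strains, and in liver none of the transporters has a filled point.

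In liver, fewer members were called against BPN than in kidney. In BPH the pumps that send conjugates back to blood, Abcc3 and Abcc4, were higher than in BPN, and the prostaglandin carrier Slco2a1 was lower. Of the 72 members, 6 were called in BPH against BPN, with 3 in each direction, against 7.14% of all probe sets, 3.29% higher and 3.85% lower. In BPL against BPN, 5 were called, with 3 higher and 2 lower, against 7.47%, 3.77% higher and 3.7% lower. In BPH against BPL, 10 were called, with 6 higher and 4 lower, against 5.77%, 2.68% higher and 3.09% lower. The shares of members called in the comparisons with BPN, 8.33% and 6.94%, were near that background.

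Among the hepatocyte uptake carriers, Slco1a1 read 11.22, 11.11, 10.88, 11.24 and 11.03 in BPH, 10.91, 11.15, 11.31, 11.40 and 10.998 in BPN, and 11.08, 11.07, 10.93, 11.19 and 11.08 in BPL. The strains overlapped, and the differences were -0.06 ± 0.09 (SE, adjusted p = 0.821) and -0.08 ± 0.09 (SE, adjusted p = 0.737). Slco1a4 differed by 0.33 and -0.38 from BPN, neither called, and its level in BPH was above that in BPL by 0.70 ± 0.13 (SE, adjusted p = 0.00152). Its second probe set gave 0.77 ± 0.20 (SE, adjusted p = 0.0293) for the same comparison. Slco1b2, the liver OATP that takes up bile acids and many drugs, likewise was higher in BPH than in BPL, by 0.33 ± 0.07 (SE, adjusted p = 0.00743), with no call against BPN (0.14 and -0.19). Slc22a7 read 9.15, 9.04, 9.21, 8.27 and 8.24 in BPH, 9.72, 9.61, 9.0, 9.51 and 9.22 in BPN, and 9.46, 9.45, 9.34, 9.23 and 9.25 in BPL. Its BPH arrays overlapped BPN and were lower by 0.63 ± 0.18 (SE, adjusted p = 0.0374), or 64.8% of the BPN level.

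Of the basolateral efflux pumps of liver, Abcc3 (MRP3) read 9.52, 9.43, 9.25, 9.54 and 9.43 in BPH, 9.0, 8.76, 9.06, 8.86 and 8.82 in BPN, and 8.70, 9.02, 9.04, 9.05 and 8.97 in BPL. It was higher in BPH without overlap, by 0.53 ± 0.08 (SE, adjusted p = 0.000293), and differed by 0.06 ± 0.08 (SE, adjusted p = 0.797) in BPL. Abcc4 read 4.37, 4.73, 4.67, 4.75 and 4.37 in BPH, 4.0, 3.83, 4.12, 4.26 and 3.99 in BPN, and 4.02, 3.66, 3.78, 4.06 and 3.99 in BPL. BPH lay above both other strains without overlap, by 0.54 ± 0.10 (SE, adjusted p = 0.0022) over BPN and 0.68 ± 0.10 (SE, adjusted p = 0.000238) over BPL.

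Most canalicular pumps, which empty into bile, were not called. Abcc2 differed by 0.33 ± 0.12 (SE, adjusted p = 0.123) and 0.10 ± 0.12 (SE, adjusted p = 0.745), and Abcg5 and Abcg8, which together export sterols, by 0.19 and 0.29 in BPH and by 0.07 and 0.14 in BPL. Abcb4, the phosphatidylcholine floppase of the canalicular membrane, was higher in BPL by 0.29 ± 0.08 (SE, adjusted p = 0.0267) and differed by -0.01 in BPH. One of the Abcg2 probe sets was higher in BPH, by 0.41 ± 0.11 (SE, adjusted p = 0.0296), and the other differed by 0.18 ± 0.08 (SE, adjusted p = 0.261). Abcb1b read 3.71, 3.17, 3.13, 3.30 and 3.28 in BPH, 3.27, 3.41, 3.19, 3.16 and 3.58 in BPN, and 3.89, 3.80, 3.83, 4.13 and 4.04 in BPL. Its BPL arrays lay above those of both other strains, by 0.62 ± 0.11 (SE, adjusted p = 0.000808) over BPN, while Abcb1a differed by 0.17 and 0.18. Abcc6, which is not a canalicular pump, differed by 0.00 in BPH and 0.18 in BPL, neither called.

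Slco2a1, a carrier that clears prostaglandins from the circulation, read 8.11, 8.09, 7.99, 8.38 and 8.19 in BPH, 8.71, 8.71, 8.76, 8.86 and 8.78 in BPN, and 8.46, 8.67, 8.58, 8.28 and 8.31 in BPL. It was lower in both strains without overlap, by 0.61 ± 0.08 (SE, adjusted p = 7.93e-05) in BPH and 0.30 ± 0.08 (SE, adjusted p = 0.0323) in BPL, so that BPH held 65.4% of the BPN level. Abcg3, a rodent relative of Abcg2, had 1 probe set that was lower by 0.31 ± 0.09 (SE, adjusted p = 0.0395) and 0.51 ± 0.09 (SE, adjusted p = 0.000993), while its other probe set differed by -0.12 and -0.11. Some markers of cells other than hepatocytes were also called, beside 7.14% of all probe sets in BPH liver and 7.47% in BPL liver. Of 10 macrophage markers, 6 were lower in BPH liver and 6 in BPL liver, with mean levels per array of 5.88 to 6.21 in BPH, 6.37 to 6.49 in BPN and 6.11 to 6.21 in BPL. Of 14 endothelial markers, 1 was higher and 3 were lower in BPH, and the mean level was 5.41 to 5.76 in BPH, 5.67 to 5.83 in BPN and 5.56 to 5.73 in BPL. In BPL 1 endothelial marker was higher and 1 lower. Of 13 markers of liver cells other than hepatocytes, 5 higher and 5 lower were called in BPH and 1 higher and 5 lower in BPL, and the mean level was 7.51 to 7.77 in BPH, 7.64 to 7.75 in BPN and 7.39 to 7.47 in BPL, so BPL lay under BPN without overlap. Of 9 hepatocyte markers, 0 were called in BPH (limma, with 1 at an unadjusted p below 0.05) and 2 were lower in BPL, and the mean level was 12.67 to 12.75 in BPH, 12.76 to 12.80 in BPN and 12.58 to 12.69 in BPL, with both strains under BPN without overlap. The mean level of 8 male-biased liver genes lay under BPN in both strains and that of 12 pericentral genes above BPN in BPH, without overlap. The part of these lists in the liver differences was not tested.

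**Figure D4:**
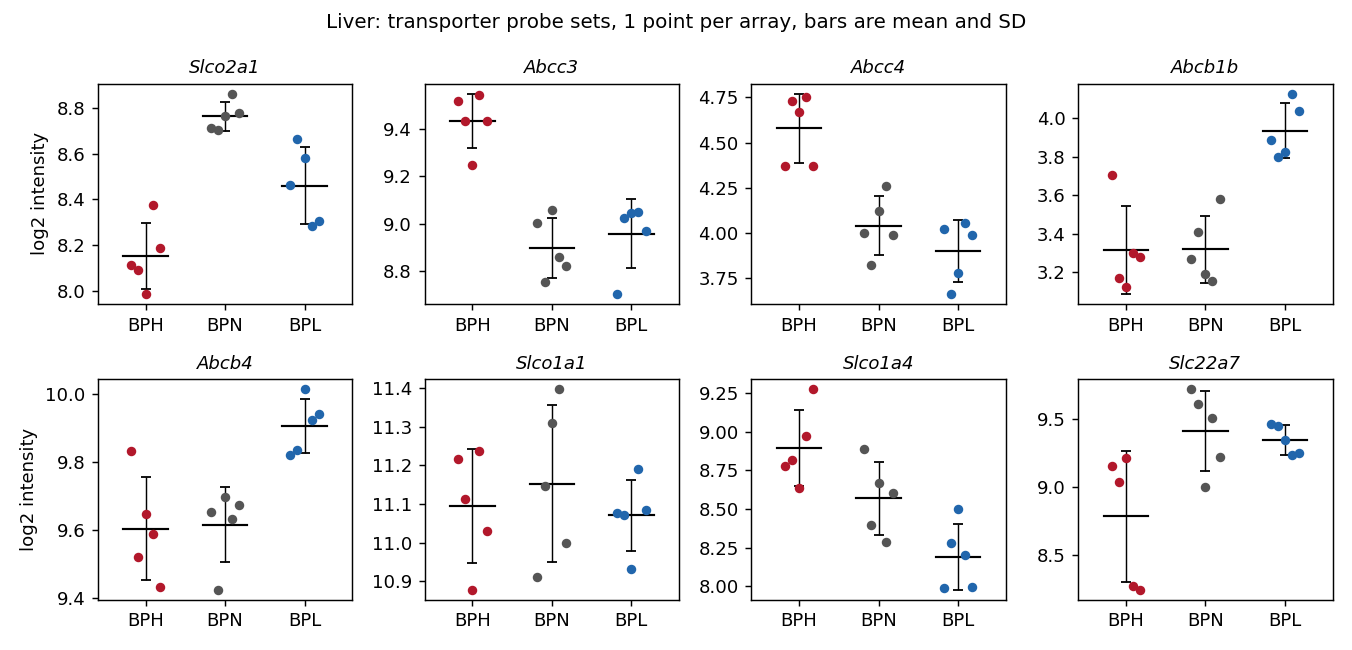
Log2 intensity of 8 transporter probe sets in liver by strain (5 arrays each, points, with bars for the mean and SD). Abcc3 and Abcc4 are highest in BPH, Abcb1b in BPL and Slco2a1 in BPN, while the Slco1a1 arrays of the 3 strains overlap.

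Several liver calls rested on few arrays. The BPH call of Slc22a7 ended without BPH array 4 (adjusted p = 0.107), BPH array 5 (adjusted p = 0.104), BPN array 1 (adjusted p = 0.104), BPN array 2 (adjusted p = 0.096) and BPN array 4 (adjusted p = 0.0812), that of the Abcg2 probe set without BPH array 1 (adjusted p = 0.0856), BPH array 2 (adjusted p = 0.0653), BPH array 5 (adjusted p = 0.0661), BPN array 2 (adjusted p = 0.078) and BPN array 5 (adjusted p = 0.0734), and that of Abcg3 in 8 of the 15 fits with 1 array left out (adjusted p up to 0.113). The BPL calls of Slco2a1 and Abcb4 ended in 6 of the 15 and 4 of the 15 such fits (adjusted p up to 0.0938 and 0.0795), and that of the second Slco1a4 probe set in BPH against BPL in 5 of the 15 (up to 0.0896). In the joint fit of all 12 groups the adjusted p was 0.119 for Abcb1b in BPL and 0.742 for Slco1b2 in BPH against BPL.

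Whether a strain difference itself differed between kidney and liver was tested as an interaction in a fit of both tissues. For BPH against BPN, 8 of the 72 members passed, beside 4.2% of all probe sets, and for BPL against BPN, 9 passed, beside 4.74%. Abcc9 had the largest interaction among the members in both, with kidney exceeding liver by 1.34 ± 0.13 (SE, adjusted p = 1.86e-08) and 1.30 ± 0.14 (SE, adjusted p = 5.36e-08). For Slco1a1 the values were 0.67 ± 0.17 (SE, adjusted p = 0.0166) and 1.11 ± 0.17 (SE, adjusted p = 5.84e-05), and for Abcc2 0.70 ± 0.18 (SE, adjusted p = 0.0219) and 1.03 ± 0.19 (SE, adjusted p = 0.000531). Slc22a17 and Slc22a2 also passed in both, the first by 0.69 ± 0.12 (SE, adjusted p = 0.000164) and 0.60 ± 0.12 (SE, adjusted p = 0.00139) and the second by 0.36 ± 0.10 (SE, adjusted p = 0.026) and 0.46 ± 0.10 (SE, adjusted p = 0.00366). The liver differences of BPH were larger in size than those of kidney for Abcc3, with an interaction of -0.56 ± 0.11 (SE, adjusted p = 0.00204), and for Slco2a1, with 0.51 ± 0.12 (SE, adjusted p = 0.00824). The joint fit of all 12 groups gave 3 and 4 called interactions.

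In heart, the mitochondrial gene Abcb8 was higher than in BPN in both strains, while the cholesterol exporter Abcg1 and the orphan OATP Slco5a1 were lower in both. Of the 72 members, 8 were called in BPH against BPN (6 higher and 2 lower), beside 7.02% of all probe sets, 3.51% higher and 3.51% lower. In BPL 6 were called (4 higher and 2 lower), beside 9.34%, 4.14% higher and 5.2% lower. In BPH against BPL 7 were called (2 higher and 5 lower), beside 8.57%, 4.59% higher and 3.97% lower. Markers of other cells varied between heart arrays. The mean of 9 hepatocyte markers was 7.42 on BPH array 1, 7.43 on BPN array 1 and 7.42 on BPL array 4, against 5.77 to 6.65 on the other heart arrays, and 0 of these markers were called in any of the 3 comparisons (limma, with 0, 0 and 1 at an unadjusted p below 0.05). Without these 3 arrays, 5 members were called in BPH against BPN, 5 in BPL against BPN and 4 in BPH against BPL. That fit was added after seeing the data, and it ended the BPH calls of Abcb1a (adjusted p = 0.0512) and of both Abcc8 probe sets described later (0.141 and 0.174). The mean of 10 adipocyte markers was 5.77 to 6.97 in BPH, 6.18 to 7.17 in BPN and 6.32 to 8.0 in BPL, with 0 called in BPH against BPN (limma, with 4 at an unadjusted p below 0.05), 2 higher in BPL against BPN and 7 lower in BPH against BPL. The part of adipocyte markers in the heart differences was not tested.

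Abcb8 read 6.97, 6.87, 7.14, 6.79 and 6.79 in BPH, 6.62, 6.35, 6.62, 6.60 and 6.64 in BPN, and 7.14, 7.22, 7.27, 7.09 and 7.24 in BPL. It was higher by 0.35 ± 0.08 (SE, adjusted p = 0.00665) in BPH and by 0.63 ± 0.08 (SE, adjusted p = 1.69e-05) in BPL, without overlap with BPN. Slco5a1 read 5.49, 5.22, 5.46, 5.22 and 5.23 in BPH, 5.79, 5.73, 5.73, 5.65 and 5.58 in BPN, and 4.68, 4.84, 4.98, 4.87 and 5.02 in BPL. The strains were ordered BPN, BPH, BPL from high to low without overlap with BPN, with differences of -0.37 ± 0.08 (SE, adjusted p = 0.00447) and -0.82 ± 0.08 (SE, adjusted p = 8.86e-07), the latter 56.7% of the BPN level.

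Abcg1 read 7.34, 7.30, 7.15, 7.22 and 7.64 in BPH, 7.74, 7.94, 7.74, 7.73 and 7.92 in BPN, and 7.18, 6.95, 7.20, 7.37 and 7.36 in BPL in heart. It was lower without overlap in both strains, by 0.48 ± 0.09 (SE, adjusted p = 0.00275) and 0.60 ± 0.09 (SE, adjusted p = 0.000297). The second Abcg1 probe set had means of 4.41 in BPH, 4.56 in BPN and 4.31 in BPL, with no call against BPN. Of 10 macrophage markers, 5 were lower in BPH heart and 7 in BPL heart, beside 3.51% and 5.2% of all probe sets. The mean levels of these markers were 6.89 to 7.01 in BPH, 7.16 to 7.59 in BPN and 6.84 to 6.89 in BPL. Their part in the Abcg1 difference was not tested. Abcb1a, which encodes P-glycoprotein of capillary endothelium, read 7.04, 6.83, 7.04, 6.87 and 6.57 in BPH, 6.47, 5.77, 6.66, 6.32 and 6.40 in BPN, and 6.40, 6.59, 6.56, 6.36 and 6.59 in BPL. It was higher by 0.55 ± 0.13 (SE, adjusted p = 0.0124) in BPH and differed by 0.18 ± 0.13 (SE, adjusted p = 0.489) in BPL. Of 14 endothelial markers, 1 was higher in BPH heart, beside 3.51% of all probe sets called higher. Slco1a4, another carrier of endothelium, was higher by 0.31 ± 0.07 (SE, adjusted p = 0.0106) and 0.33 ± 0.07 (SE, adjusted p = 0.00587). Slc22a19 was also called in BPH and was higher by 0.19 at levels under the lower quartile in every strain.

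Abcc9, whose product belongs to the cardiac ATP-sensitive potassium channel, read 10.64, 10.68, 10.69, 10.67 and 10.82 in BPH, 10.72, 10.65, 10.83, 10.75 and 10.77 in BPN, and 10.74, 10.88, 10.72, 10.77 and 10.83 in BPL in heart. The strains overlapped and the differences were -0.05 ± 0.05 (SE, adjusted p = 0.759) and 0.04 ± 0.05 (SE, adjusted p = 0.713). Abcc8, which encodes the receptor SUR1, had 4 probe sets, of which 2 were higher in BPH, by 0.27 ± 0.07 (SE, adjusted p = 0.0309) and 0.27 ± 0.07 (SE, adjusted p = 0.0268). Another of them differed by -0.09 ± 0.13 (SE, adjusted p = 0.812), and the last had means of 7.95 in BPH and 7.85 in BPN, not called. The 2 calls ended in 7 of the 15 and 5 of the 15 fits with 1 array left out (adjusted p up to 0.0925 and 0.074). The carnitine carrier Slc22a5 (OCTN2), on which heart muscle depends for fatty acid oxidation, differed by -0.02 ± 0.06 (SE, adjusted p = 0.905) in BPH and 0.19 ± 0.06 (SE, adjusted p = 0.0661) in BPL. Abcc1 (MRP1) differed by -0.01 and -0.08 and the main Abcg2 probe set by 0.18 and -0.16, none called. In the joint fit of all 12 groups the BPH calls of Abcb8 (adjusted p = 0.0769) and Slco1a4 (0.256) and the BPL call of Slco1a4 (0.165) ended.

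In aorta, the rodent gene Abcg3, the cation carrier Slc22a2 and Abcg1 were lower in BPH than in BPN, and P-glycoprotein, Slco1a4, Slc22a17 and Abcb8 were higher. Of the 72 members, 13 were called in BPH against BPN (7 higher and 6 lower), beside 9.15% of all probe sets, 4.45% higher and 4.7% lower. In BPL 6 were called (5 higher and 1 lower), beside 10.3%, 5.14% higher and 5.2% lower. In BPH against BPL 7 were called (3 higher and 4 lower), beside 11%, 5.67% higher and 5.36% lower. Some markers of tissue around the aorta were also called, beside the 9.15% and 10.3% of all probe sets in BPH and BPL. Of 14 striated muscle markers, 5 were higher and 1 lower in BPH, and 4 were higher in BPL. Of 10 adipocyte markers, 2 higher and 1 lower were called in BPH and 2 higher and 1 lower in BPL. The mean level of these adipocyte markers per array was 9.04 to 10.18 in BPH, 8.38 to 9.75 in BPN and 9.37 to 10.58 in BPL, and that of 12 pericyte and smooth muscle markers 10.89 to 11.19, 11.10 to 11.28 and 10.66 to 11.04. The mean of 9 hepatocyte markers was 6.86 on BPL array 26 against 2.97 to 3.68 on the other 22 aorta arrays, and 0 of them were called in any of the 3 comparisons (limma, with 0, 0 and 0 at an unadjusted p below 0.05). Without that array, 13 members were called in BPH against BPN, 5 in BPL against BPN and 6 in BPH against BPL. The part of the muscle and adipocyte markers in the aorta differences was not tested.

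The brighter Abcg3 probe set read 4.83 at the lowest, 5.44 at the median and 5.76 at the highest of the 9 BPH arrays, 6.33, 6.19, 6.45, 6.07 and 6.70 in BPN, and 4.92 at the lowest, 5.29 at the median and 5.52 at the highest of the 9 BPL arrays. Neither strain overlapped BPN, and the differences were -1.03 ± 0.15 (SE, adjusted p = 2.71e-05) and -1.07 ± 0.15 (SE, adjusted p = 1.38e-05), or 49% and 47.5% of the BPN level. Its other probe set differed by 0.00 ± 0.11 (SE, adjusted p = 0.995) and 0.08 ± 0.11 (SE, adjusted p = 0.761).

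Slc22a2, higher in BPH kidney, went the other way in aorta. It read 5.85 at the lowest, 6.28 at the median and 6.99 at the highest of the 9 BPH arrays, 7.05, 7.07, 7.04, 8.31 and 7.54 in BPN, and 6.93 at the lowest, 7.71 at the median and 7.97 at the highest of the 9 BPL arrays. The BPH arrays lay under all BPN arrays, by 0.96 ± 0.21 (SE, adjusted p = 0.00249), and BPL differed by 0.21 ± 0.21 (SE, adjusted p = 0.648). The difference between the kidney and aorta values was not tested. Abcg1 read 7.52 at the lowest, 7.61 at the median and 7.90 at the highest of the 9 BPH arrays, 8.47, 8.26, 8.29, 8.05 and 8.24 in BPN, and 7.81 at the lowest, 8.18 at the median and 8.58 at the highest of the 9 BPL arrays. It was lower in BPH, by 0.58 ± 0.11 (SE, adjusted p = 0.000522), with its second probe set at -0.68 ± 0.17 (SE, adjusted p = 0.00873), and differed by -0.08 ± 0.11 (SE, adjusted p = 0.766) in BPL. Of 10 macrophage markers 0 were called in BPH or BPL aorta against BPN (limma, with 6 and 2 at an unadjusted p below 0.05). Slc22a18, an imprinted gene for a putative carrier, was lower by 0.46 ± 0.11 (SE, adjusted p = 0.00405) in BPH, and Slco2a1 by 0.59 ± 0.15 (SE, adjusted p = 0.0105), a call that ended without BPN array 12 (adjusted p = 0.0555).

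Among the members higher in aorta, Abcb1a read 5.13 at the lowest, 5.77 at the median and 6.50 at the highest of the 9 BPH arrays, 5.08, 5.11, 4.53, 4.77 and 5.31 in BPN, and 4.89 at the lowest, 5.21 at the median and 5.40 at the highest of the 9 BPL arrays. It was higher by 0.76 ± 0.17 (SE, adjusted p = 0.00292) in BPH, with overlap, and differed by 0.22 ± 0.17 (SE, adjusted p = 0.529) in BPL. Slco1a4 was higher in both strains, by 0.68 ± 0.12 (SE, adjusted p = 0.000401) and 0.83 ± 0.12 (SE, adjusted p = 3.15e-05). The BPN mean of this Slco1a4 probe set was 3.39, near the lower quartile of at most 3.03. The second Slco1a4 probe set lay under that quartile in all strains. Slc22a17 was higher by 0.45 ± 0.09 (SE, adjusted p = 0.00106) in BPH and differed by 0.01 in BPL. Of 14 endothelial markers, 1 was higher in BPH aorta, beside 4.45% of all probe sets called higher. The mean level of these markers was 9.40 to 9.73 in BPH and 9.36 to 9.72 in BPN. Abcc9, the vascular SUR2 gene, read 11.82 at the lowest, 11.94 at the median and 12.06 at the highest of the 9 BPH arrays, 11.58, 11.66, 11.63, 11.67 and 11.60 in BPN, and 11.67 at the lowest, 11.77 at the median and 11.96 at the highest of the 9 BPL arrays. It was higher in BPH without overlap, by 0.32 ± 0.06 (SE, adjusted p = 0.000856), and its partner Kcnj8 was lower there, by 0.41 ± 0.10 (SE, adjusted p = 0.00741). The second Abcc9 probe set lay under the lower quartile and differed by -0.19.

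Slco4a1, a thyroid hormone carrier, was higher in BPL aorta by 0.43 ± 0.13 (SE, adjusted p = 0.0393), and this call ended in 8 of the 23 fits with 1 array left out (adjusted p up to 0.104). Abcc1 differed by -0.01 and 0.04, and the 2 Slco3a1 probe sets by -0.07 and -0.18 in BPH, none called. Abcc6 was called higher in BPH (adjusted p = 0.00171) while BPN and BPL lay under the lower quartile, and 1 of the Abcc8 probe sets was higher in both strains, by 0.33 ± 0.10 (SE, adjusted p = 0.0478) and 0.41 ± 0.10 (SE, adjusted p = 0.0093). The other 3 Abcc8 probe sets differed by 0.24, -0.03 and -0.10 in BPH and by 0.13, 0.08 and -0.09 in BPL, none called. The last BPL call was Slc22a6, higher by 0.33.

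**Figure D5:**
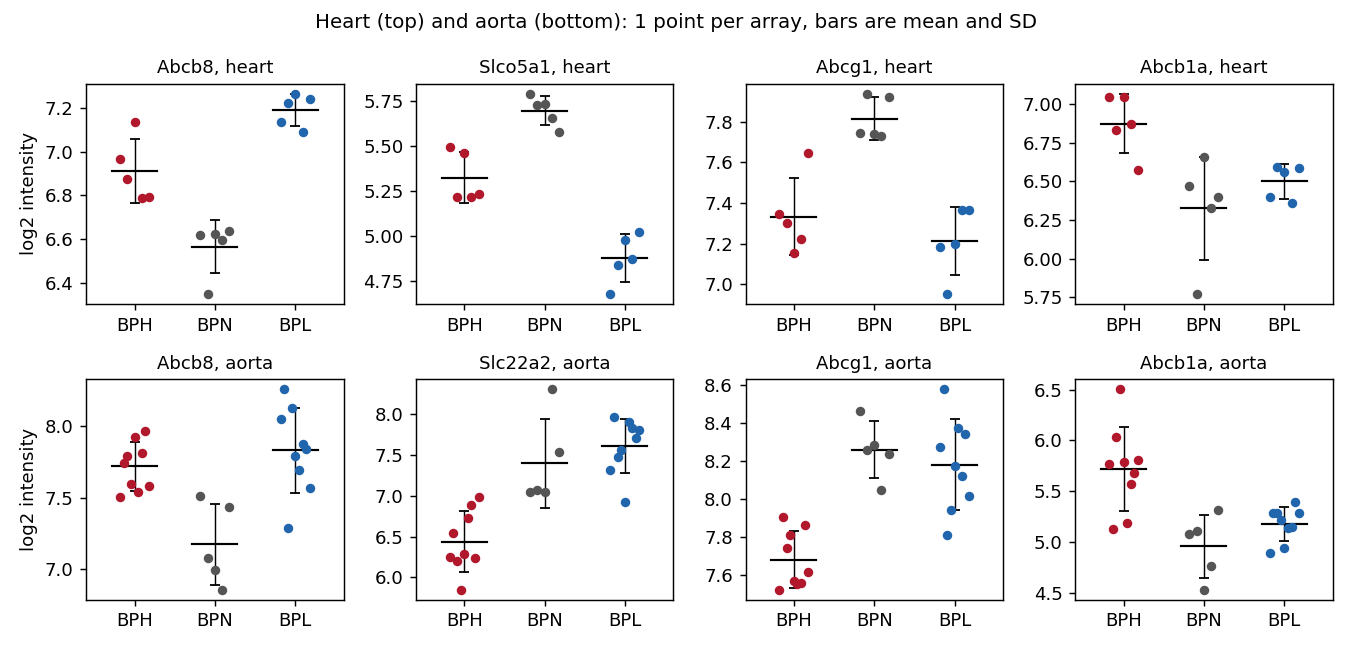
Log2 intensity of 4 probe sets in heart (top, 5 arrays per strain) and 4 in aorta (bottom, 9 BPH, 5 BPN and 9 BPL arrays), each array a point, with bars for the mean and SD. Abcb8 is lowest in BPN in both tissues, Abcg1 is lower in BPH than in BPN in both, and Slc22a2 in aorta is lowest in BPH.

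Abcb8 was the only member called in the same direction in all 4 tissues, and this in BPL against BPN, beside 0.568% of all probe sets. In BPH against BPN and BPH against BPL no member was, beside 0.659% and 0.711%. Its differences in BPL were 0.55 ± 0.07 (SE, adjusted p = 8.38e-05) in kidney, 0.39 ± 0.09 (SE, adjusted p = 0.0115) in liver, 0.63 ± 0.08 (SE, adjusted p = 1.69e-05) in heart and 0.65 ± 0.14 (SE, adjusted p = 0.00151) in aorta. In BPH it differed by 0.11 in kidney and 0.12 in liver, neither called, and was higher by 0.35 in heart and 0.54 in aorta. Abcb8 had 1 probe set, and strain differences in sequence under its probes were not tested. The aorta arrays of Abcb8 read 7.51 at the lowest, 7.74 at the median and 7.96 at the highest of the 9 BPH arrays, 7.51, 7.08, 7.0, 6.86 and 7.43 in BPN, and 7.29 at the lowest, 7.84 at the median and 8.26 at the highest of the 9 BPL arrays. Abcb10, a second mitochondrial member that acts in haem synthesis, was higher in BPL in kidney (0.32) and heart (0.28). Its means in BPL and BPN were 7.34 and 7.31 in liver and 8.80 and 8.95 in aorta, neither difference called.

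Some other transporters of the same routes were also called. Of 28 measured partner transporters, 2 were higher and 2 lower in BPH kidney, beside 7.05% of all probe sets. In BPL kidney 7 were higher and 0 lower, beside 6.24%. The medians were 0.09 and 0.08, beside -0.001 and -0.01 over all probe sets. In liver, 2 were higher and 1 lower in BPH, beside 7.14%, and 2 higher and 7 lower in BPL, beside 7.47%. Slc47a1 (MATE1), the apical exchanger that hands organic cations taken up by Slc22a2 to urine or bile, was lower in BPH in all 4 tissues, by 0.56 ± 0.05 (SE, adjusted p = 3e-06) in kidney, 0.95 ± 0.06 (SE, adjusted p = 3.16e-09) in liver, 1.09 ± 0.07 (SE, adjusted p = 4.54e-09) in heart and 0.97 ± 0.18 (SE, adjusted p = 0.000595) in aorta. In BPL kidney it differed by 0.12 ± 0.06 (SE, adjusted p = 0.301). In BPH kidney the uptake carrier Slc22a2 was higher and the efflux exchanger Slc47a1 lower than in BPN. The Slc22a2 call ended in the joint fit of all 12 groups. Of all probe sets, 0.659% were called in the same direction in all 4 tissues in BPH against BPN. Strain differences in sequence under the Slc47a1 probes were not tested.

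Slc15a2, an apical peptide carrier, was higher in kidney by 1.05 ± 0.06 (SE, adjusted p = 6.32e-09) in BPH and 0.96 ± 0.07 (SE, adjusted p = 3.67e-08) in BPL. Slc17a3, an apical urate and anion carrier, was lower by 0.59 ± 0.08 (SE, adjusted p = 7.29e-05) in BPH kidney. Slc10a2, the ileal-type bile acid carrier, was higher in BPH in kidney by 0.41 ± 0.09 (SE, adjusted p = 0.00811) and in liver by 1.30 ± 0.14 (SE, adjusted p = 3.89e-06), while in BPL it was higher in kidney by 0.82 and lower in liver by 0.78. Of 21 measured scaffolds and regulators of these carriers, 0 were called in BPH kidney or BPH liver (limma, with 3 and 2 at an unadjusted p below 0.05). In BPL kidney 2 were higher and 1 was lower, beside 6.24% of all probe sets called. The lower one was Sgk1, a kinase that regulates many carriers, by 0.78 ± 0.14 (SE, adjusted p = 0.00201).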

How the data were processed

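RNA of aorta, heart, kidney and liver was hybridised to 67 custom Affymetrix mouse arrays. Biotin-labelled cDNA was made for aorta, per the labels' protocols, and cRNA for the other tissues. The authors deposited 1 intensity per probe set and array on a linear scale, and the submitters' processing notes name RMA as the normalisation. Array medians of these values lay close together in each tissue but apart across tissues. Log2 of the intensity was taken with a pseudocount of 0. Symbols came from the platform annotation, and probe sequences were not used here. Strain differences in sequence under the probes were thus not tested. For every tissue, limma 3.58.1 (R 4.3.3) estimated strain means with moderated variances, and p-values were adjusted by Benjamini-Hochberg over 38385 probe sets. The code was tested on simulated data. Batches and scan dates were not used here, and the number of arrays limits the precision.

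Members, lists and tests were chosen with earlier results of these data known. Named genes were, per tissue and comparison with BPN, up to 6 (kidney, liver) or 4 (heart, aorta) members with the largest called rises and falls whose groups did not overlap, preset genes per tissue (3 of which are not analysed here), called partner transporters and regulators, and members called in all 4 tissues. Outside this rule, Slc22a13, Slc22a19, Slc22a21, Slc22a26, Abcb1b and Abcb10 in kidney, the chromosome 6 genes in kidney and liver, Slc22a19 and Abcb10 in heart, Abcc6, Abcc8 and Slc22a6 in aorta, and Kcnj8 where not called were picked with their values in view. Alternatives were another scaling, pseudocount, filter, variance model, probe set or joint fit, a replicate block, and leaving out each array. Leaving out the arrays whose mean over the hepatocyte markers lay more than 1 above the median of their group, in heart and aorta, was chosen after seeing the data. The labels did not say whether shared replicate numbers pair arrays. Deviations of same-numbered arrays correlated between -0.285 and 0.278, and those of kidney and liver arrays of the same strain between -0.056 and 0.206. Such values cannot settle whether arrays came from the same animal, and the main fits treated arrays as independent.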

Additional observations from a re-analysis of the deposited data

Results flagged for a closer look

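Single arrays stood apart from the rest of their group in 14 of the 234 groups of named probe sets examined, and chance alone gives about 1 in 20. In kidney, BPL array 4 read for an Slc22a8 probe set 10.74 against 10.45 to 10.5 in the other BPL arrays. In liver, BPN array 2 was low for Abcb4, at 9.42 against 9.63 to 9.69 and for Abcc6, at 9.12 against 9.41 to 9.53, BPL array 1 was low for Abcc3, at 8.7 against 8.97 to 9.05, and BPN array 4 was high for Slco1b2, at 11.02 against 10.84 to 10.87. In heart, BPN array 2 was low for Abcb8, at 6.35 against 6.6 to 6.64 and BPH array 5 high for Abcc9, at 10.82 against 10.64 to 10.69. The dim second Abcc9 probe set in aorta had 3 such arrays, BPH array 10 at 1.83 against 2.36 to 2.74, BPN array 12 at 3.28 against 2.34 to 2.59 and BPL array 24 at 3.03 against 2.18 to 2.61. Also in aorta, BPL array 24 was low for the second Abcg3 probe set, at 2.79 against 3.24 to 3.55, BPH array 5 low for Slco1a4, at 3.5 against 4 to 4.35, and BPL array 22 low for an Slco3a1 probe set, at 9.66 against 9.89 to 10.13 and high for Slco4a1, at 6.24 against 5.18 to 5.66.

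The kidney difference from BPN differed from the liver difference, by the interaction test, for 16 pairs of named probe set and strain. In BPH, kidney minus liver was 1.34 for Abcc9, 0.85 for Abcc6, 0.7 for Abcc2, 0.69 for Slc22a17, 0.67 for Slco1a1, 0.51 for Slco2a1, 0.36 for Slc22a2 and -0.56 for Abcc3. In BPL it was 1.3 for Abcc9, 1.11 for Slco1a1, 1.03 for Abcc2, 0.6 for Slc22a17, 0.46 for Slc22a2, 0.43 for Slco1a6, -0.46 for Abcg1 and -0.57 for Slco4c1. Slc22a2 in BPH against BPN was higher on every array in kidney (0.33) and lower on every array in aorta (-0.96), and the difference between these tissues was not tested.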

How the results depend on the processing

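A joint fit of all 12 groups, which shares 1 spread over tissues, moved 8 of the 14 counts of called members by over 1.5 times. It gave 8 in place of 13 for BPH against BPN in kidney, 6 in place of 10 for BPH against BPL in liver, 3 in place of 8 and 3 in place of 7 for BPH against BPN and against BPL in heart, and 13 in place of 6 and 14 in place of 7 for BPL against BPN and BPH against BPL in aorta. For the kidney minus liver interaction it gave 3 in place of 8 in BPH and 4 in place of 9 in BPL. Centring on array medians gave 4 for BPH against BPL in heart, and a pseudocount of 16 gave 16 interactions in BPL. With 1 array left out, the counts for BPH against BPN, BPL against BPN and BPH against BPL ran over 10 to 13, 12 to 18 and 7 to 8 in kidney, 3 to 8, 3 to 6 and 6 to 10 in liver, 5 to 9, 5 to 7 and 4 to 8 in heart, and 12 to 14, 4 to 7 and 6 to 9 in aorta, and 7 to 11 and 7 to 10 for the interactions in BPH and BPL. Counts moved by over 1.5 times in liver without BPH array 5 (to 3 against BPN and 6 against BPL), BPN array 2 (to 3, BPH against BPN) or BPL array 5 (to 3, BPL against BPN), and in heart without BPH array 1, BPH array 3 or BPN array 2 (to 5, BPH against BPN) or BPL array 3 or 5 (to 4, BPH against BPL). Among called values of genes named by rule, signs turned only between probe sets of 1 gene, and the values of the opposite sign given second here were not called. These were Abcc9 in kidney (1.24 and 1.04 against -0.020 and -0.12 in BPH and BPL) and in BPH aorta (0.32 against -0.19), Abcc8 in BPH heart (0.27 and 0.27 against -0.088) and Abcg3 in BPL aorta (-1.07 against 0.083). In aorta, the Abcc8 probe sets likewise differed in sign, with the called values of 1 of them positive. Leaving out the 3 heart arrays with high hepatocyte markers gave 5 in place of 8 for BPH against BPN and 4 in place of 7 for BPH against BPL. The cause of these changes was not tested.

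The labels did not say whether replicate numbers shared by strains pair the arrays. With a replicate block, the counts were 12, 14 and 8 in kidney, 5, 5 and 10 in liver and 6, 6 and 6 in heart, none moved by over 1.5 times, and 10 and 11 for the interactions. Aorta strains shared at most 1 replicate number, so no block was fitted there. Over the named probe sets, 2104 of their values under the alternatives that keep all arrays and the same probe set stayed on their side of the threshold, 64 lost it and 54 gained it. Detection calls were not used here, so dim probe sets may lie at background.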

Other observations

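Lists of liver genes known to differ between the sexes or along the lobule were counted apart from the transporters. All mice were male. Over all probe sets, 7.14% were called in BPH liver and 7.47% in BPL liver. Of 8 measured male-biased liver genes, 1 higher and 2 lower were called in BPH liver and 0 higher and 3 lower in BPL liver, and of 11 female-biased genes 1 higher and 1 lower and 0 higher and 1 lower. The mean level of the male-biased genes per array was 10.73 to 11.09 in BPH, 11.10 to 11.22 in BPN and 10.55 to 10.93 in BPL, so both strains lay under BPN without overlap, and that of the female-biased genes was 3.39 to 3.96 in BPH, 3.70 to 3.85 in BPN and 3.51 to 3.63 in BPL. Of 12 genes of pericentral hepatocytes, which surround the central vein, 2 higher and 0 lower were called in BPH and 2 higher and 3 lower in BPL. Their mean level was 9.41 to 9.66 in BPH, 9.24 to 9.38 in BPN and 9.15 to 9.30 in BPL, with BPH above BPN without overlap. Of 10 genes of periportal hepatocytes, which lie at the portal tracts, 3 higher and 2 lower and 4 higher and 2 lower were called, and their mean level was 10.37 to 10.51 in BPH, 10.30 to 10.54 in BPN and 10.36 to 10.58 in BPL. Of 18 markers of kidney cells other than the proximal tubule, 4 higher and 2 lower were called in BPH kidney, beside 7.05% of all probe sets. In BPL kidney 2 higher and 5 lower were called, beside 6.24%.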
